A study of Callithrix jacchus with 6 samples.

Results

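A set of 117 genes was measured at a substantial level in every adult marmoset liver and gave no read at all in the marmoset hepatic progenitor cell (MHPC) line. The genes were chosen by measured values of the same comparison. A member had an FPKM (reads scaled to gene length in kilobases and to 1000000 library reads) of 0 in all 3 MHPC libraries and of at least 10 in each of the 3 adult livers, and was not among the 200 genes with the highest mean FPKM in liver. Among the 32323 genes of the table, 117 met all of these conditions, so the contrast between MHPCs and liver that follows for them is a description and was not tested. A gene name was found for 72 of the 117, and the other 45 are known here by Ensembl identifier only.

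MHPCs are 1 clone (clone 1) grown from fetal liver cells of the common marmoset, *Callithrix jacchus*, and immortalized with lentivirus carrying SV40 large T antigen and EGFP. The 3 MHPC libraries came from passages within the range 15 to 30, and the 3 liver libraries came from liver tissue of separate adults within the age range of 5 to 10 years, as the sample labels give them. The methods of the study name some passages and ages outside these ranges, and a figure legend names adult animals of both sexes by code. The labels tie no library to a passage, an age, a sex, or an animal code, and no treatment is named for either group. Sex, age, and animal thus cannot be told apart in the differences between livers. The spread between MHPC libraries therefore covers passages of 1 clone, and the spread between livers covers animals. Liver tissue is a mixture of cell types, and fewer cells of a type cannot be told apart from less RNA per cell.

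Hepatocytes, the main cell of the adult liver, clear drugs and hormones, make bile acids, run the urea cycle, keep up blood glucose, and secrete most plasma proteins. Most of these functions are switched on late in development, under transcription factors such as HNF4A, FOXA2, and the nuclear receptors. Sinusoidal endothelial cells, the resident macrophages called Kupffer cells, and stellate cells make up much of the remaining tissue, and each carries genes that hepatocytes lack.

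Reads were recovered from the FPKM values, as whole numbers for 100% of the values above 0. The libraries held 6501285 to 8450454 reads in MHPCs and 8670017 to 9682046 reads in liver. The identity of the groups was checked with marker genes. *ALB*, the gene of serum albumin, was at 52746, 13225, and 32492 FPKM in adult livers 1, 2, and 3 and at 2.06 to 2.39 FPKM in MHPCs. In MHPCs, *VIM* (vimentin, a mesenchymal filament protein) was at 2052 to 2189 FPKM, *COL1A1* at 1257 to 1800 FPKM, and *KRT7*, a cytokeratin of bile duct and progenitor cells, at 27.8 to 39.7 FPKM. The liver ranges were 12.5 to 35.5 FPKM for *VIM*, 10.4 to 34.4 FPKM for *COL1A1*, and 8.18 to 20.7 FPKM for *KRT7*. *KRT7* thus differed least between the groups. The progenitor marker *EPCAM* rested on 4 reads in MHPC 3 and on none in the other MHPC libraries, and *AFP*, the fetal plasma protein, had none in any of the 3, against 2.56, 0.275, and 1.14 FPKM in the livers.

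Reaching 0 in MHPCs was common in the table but rare among genes of this liver level. Of all genes, 13508 had no MHPC read, and 11087 of these had no read in any of the 6 libraries. Of the 2421 that had reads in at least 1 liver, 335 reached 1 FPKM in every liver and 129 reached 10 FPKM, and leaving out the 12 that lay among the 200 highest in liver gave the 117. Conversely, 4179 genes met the liver conditions, and the members were 2.80% of them. The other 4062 had MHPC reads, with a median of 1680.5 reads over the 3 libraries. Only 87 of them had 1 to 3 reads (47, 22, and 18 genes with exactly 1, 2, and 3), and 62 had 4 to 10, whereas 3913 had more than 10. Most genes of this liver level were thus detected with many reads in MHPCs, and the members lay at the bottom of a sparse tail.

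**Figure D1:**
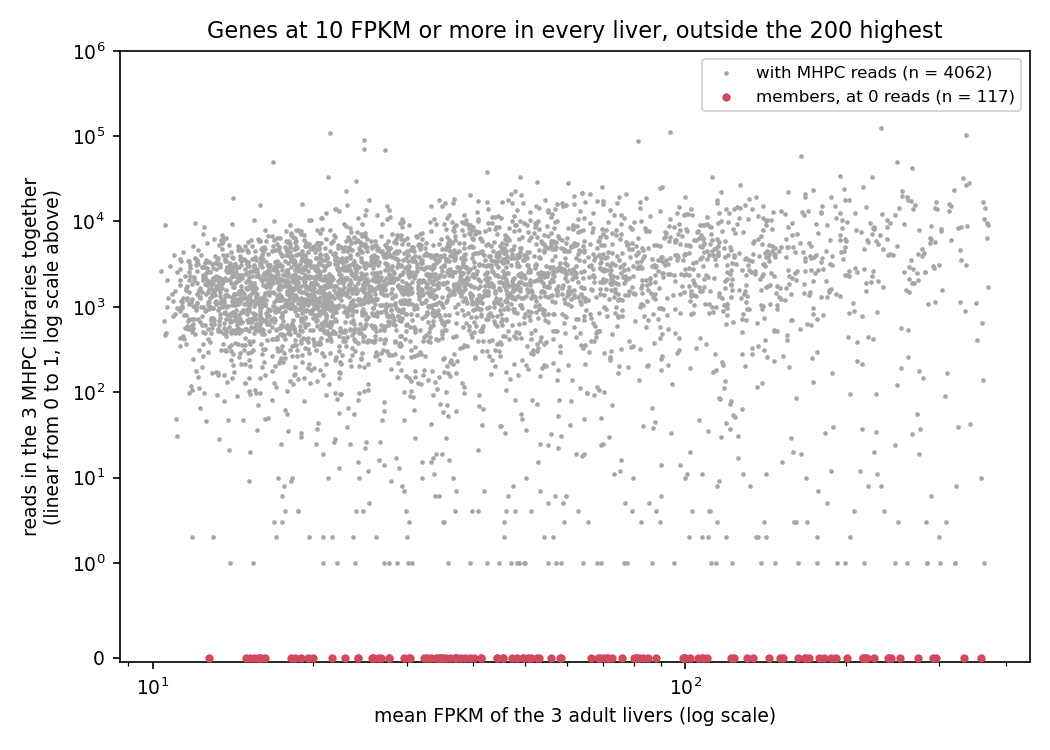
Each point is 1 of the 4179 genes at 10 FPKM or more in every adult liver and outside the 200 highest. The horizontal axis is the mean FPKM of the 3 livers and the vertical axis is the number of reads in the 3 MHPC libraries together. The 117 members lie on the line at 0 reads, between 12.8 and 359 FPKM in liver, well under the bulk of the other 4062 genes, whose median is 1680.5 reads.

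The share of genes without an MHPC read was larger at higher liver levels. It was 1.19% (13 of 1092) at a mean liver FPKM of 10 to 20, 2.41% (42 of 1743) from 20 to 50, and 3.62% (26 of 718) from 50 to 100. It then reached 4.59% (20 of 436) from 100 to 200 and 8.42% (16 of 190) above 200. Among the 200 highest genes themselves, 199 reached 10 FPKM in every liver, and 6.03% of these (12 of 199) had no MHPC read.

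A count of 0 allows up to 3 reads, here over the 3 MHPC libraries together, and this set how far below liver a member could be placed. For the median member 3 reads were worth 0.109 FPKM, with a range from 0.0262 to 1.57 FPKM depending on gene length. Mean liver FPKM was at least 20.3-fold to at least 5193-fold higher than this floor, with a median of 555-fold. The bound was 100-fold or more for 110 members and 1000-fold or more for 31. It rested on 75 to 19118 liver reads a gene (median 2077), and 87 members had 1000 liver reads or more. The bounds cover counting error only, and the recovered gene lengths are lower bounds, which makes the floor too high rather than too low. The median bound was 183-fold when 3 reads were allowed in each MHPC library and 1318-fold with size factors (median of ratios), a scaling that sets the typical gene equal between libraries.

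Because the members reached 10 FPKM in 3 livers, all 117 passed the filter of the comparison across all genes (at least 1 FPKM in at least 3 libraries), and they passed it through the liver libraries alone. In that comparison (limma on log2(FPKM + 1), Benjamini-Hochberg adjustment, adjusted *P*-value under 0.05), 15.4% of the 13620 genes tested were lower in MHPCs and 65.2% were higher. All 117 members were called lower. The rule fixed this direction, and nothing is read from it. With size factors, 4238 genes were lower and 4246 higher, so that the directions were near equal in number in place of 80.9% of the calls being higher, and the median log2 fold change of all tested genes was 0.03 in place of 1.09. With quantile normalization 60.6% of the calls were higher, and the median was 0.28.

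The 3 members with the highest mean liver levels did not share a pattern. *FCN2*, the gene of ficolin-2, a lectin that starts the complement cascade, was at 348, 294, and 435 FPKM in adult livers 1, 2, and 3. *UGT2B4*, a UDP-glucuronosyltransferase that conjugates bile acids and steroids, was at 773, 40.2, and 188 FPKM. *S100A8*, a calcium-binding protein of neutrophils and monocytes that is also made by stressed hepatocytes, was at 13.1, 849, and 23.4 FPKM. *FCN2* was thus at a like level in the 3 livers, while *UGT2B4* was highest in liver 1 and *S100A8* owed its place to liver 2 alone. The member without a name and with the highest bound was ENSCJAG00000007928, at 317, 117, and 291 FPKM, at least 5193-fold above the MHPC floor, and *UGT2B4* followed at 4776-fold.

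Enzymes of drug, steroid, and bile acid metabolism formed one of the larger groups. Of 18 genes of the cytochrome P450 and drug metabolism list that were found in the table, 14 met the liver conditions and 6 were members. *CYP2B6*, a P450 of drug oxidation, was at 368, 80.8, and 282 FPKM in livers 1, 2, and 3, at least 2674-fold above the MHPC floor. *SULT2A1*, the sulfotransferase of bile acids and adrenal steroids, was at 262, 88.1, and 185 FPKM, and *CYP2C18* at 194, 32.2, and 80.3 FPKM. In these 3 genes liver 2 was lowest and liver 1 highest. On deposited values 55 of the 117 members had the order of liver 1, liver 3, and liver 2 from highest to lowest. Liver 2 was the lowest in 73 members (62.4%), beside 52.7% of all 4179 genes that met the liver conditions, and with size factors of the 3 livers in 59 members (50.4%), beside 27.9%. *SULT1E1*, which sulfates estrogens, was lower throughout, at 33.9, 14.1, and 29.4 FPKM. *CYP8B1*, a sterol hydroxylase that sets the composition of the bile acid pool, went the other way, at 40.7 FPKM in liver 1, 124 FPKM in liver 2, and 78.5 FPKM in liver 3. Genes of the *CYP2C*, *UGT2B*, and *SULT* families have near copies, and reads that match several copies could be lost or miscounted.

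The remaining genes of that list were not at 0 in MHPCs. Of the 11 that had MHPC reads and were tested, 10 were called lower in MHPCs by limma and 0 higher. Of all 13285 tested genes with MHPC reads, 1764 were called lower and 8878 higher. The same background applies to the calls of the other lists below. The median log2 fold change was -5.80 in this list, beside 1.13 over the 13285 genes. *CYP1A2*, which oxidizes caffeine and aromatic amines, was at 21.4, 45.3, and 23.8 FPKM in MHPCs against 142, 82.5, and 122 FPKM in liver. *CYP3A4*, the main P450 of drug metabolism, rested on 52 MHPC reads. *CYP39A1*, a hydroxylase of oxysterols, was not called on deposited values and was called lower with size factors.

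Transporters of the hepatocyte membranes gave 5 members among the 12 listed transport genes that met the liver conditions. *SLCO1B3*, the uptake carrier of bile acids and many drugs on the blood side of the cell, was at 129, 59.9, and 109 FPKM. *ABCB11*, the bile salt export pump of the canalicular side, was at 43.8, 32.2, and 60.5 FPKM. *SLC2A2*, the main glucose transporter of hepatocytes, was at 140.5, 21.6, and 93.0 FPKM. The liver values of *SLC2A2* spread 6.50-fold, more than those of the other transporter members. *SLC25A47*, a mitochondrial carrier of the liver, was at 32.7 to 43.8 FPKM, and *SLC17A4*, an organic anion carrier, at 12.8 to 19.9 FPKM. Of 13 other transport genes tested with MHPC reads, 12 were called lower and 1, *ABCG2*, was called higher on deposited values but not with size factors or quantile normalization. *SLC10A1*, the sodium-dependent bile acid carrier, fell outside the set with 1 MHPC read and 2.73 to 8.46 FPKM in liver.

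Secreted proteins of complement and coagulation were mostly outside the set, either among the highest liver genes, with MHPC reads, or under the liver minimum. Of 22 complement genes in the table, 9 were among the 200 highest in liver, 12 met the liver conditions, and 4 were members. Beside *FCN2*, these were *C4BPB*, the beta chain of the C4b-binding protein (164, 216, and 166 FPKM), *C6* of the membrane attack complex (140, 171, and 193 FPKM), and *MBL2*, the mannose-binding lectin (207, 86.7, and 97.9 FPKM). Liver 2 was the highest of the 3 for *C4BPB* and the lowest for *MBL2*. *C6* had 16560 liver reads and no MHPC read, which places it at least 4548-fold above the MHPC floor. All 17 complement genes tested with MHPC reads were called lower in MHPCs, beside 1764 of all 13285 such genes. *C3*, the central component, still kept 84.5 to 150.2 FPKM there.

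Coagulation gave 3 members of 17 genes that met the liver conditions. *HABP2*, a serine protease that activates factor VII, was at 216, 132, and 228 FPKM in livers 1, 2, and 3. *F13B*, the carrier subunit of factor XIII, was at 99.9, 49.7, and 78.7 FPKM, and *F11*, coagulation factor XI, was at 66.0, 19.1, and 38.9 FPKM. All 3 were lowest in liver 2. A further 8 of the 17 had only 1 to 3 MHPC reads, among them *PROC* (protein C), *F9*, and *HGFAC* with 1 read each, so that 11 of the 17 lay at or under the 3 reads that a count of 0 allows. Of 24 coagulation genes tested with MHPC reads, 23 were called lower and 1, *TFPI*, an inhibitor of the tissue factor pathway, was called higher on deposited values and with quantile normalization but not with size factors.

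Enzymes of amino acid and nitrogen metabolism gave 6 members of 19 that met the liver conditions. *OTC*, the urea cycle enzyme that makes citrulline, was at 169.6, 68.5, and 128 FPKM. *DPYS*, which breaks down pyrimidines, was at 387, 92.2, and 169 FPKM, and *AGXT2*, a mitochondrial aminotransferase, at 219, 96.7, and 141 FPKM. *DMGDH*, an enzyme of the betaine pathway, was at 147, 48.9, and 102 FPKM, and *BHMT2* at 73.8, 24.9, and 49.9 FPKM. In all 5 of these genes liver 1 was highest and liver 2 lowest. *HAL*, which begins histidine breakdown, had the opposite order, at 11.1 FPKM in liver 1, 172 FPKM in liver 2, and 57.4 FPKM in liver 3. The urea cycle was not uniformly without reads in MHPCs. *CPS1*, its first enzyme, had 10 MHPC reads, and *ASS1*, which follows *OTC*, was at 195 to 205 FPKM in MHPCs and 1445 to 2563 FPKM in liver. All 20 genes of this list tested with MHPC reads were called lower.

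Carbohydrate and plasma carrier genes added few members. *G6PC1*, the catalytic subunit of glucose-6-phosphatase that releases glucose into the blood, was at 361, 152, and 365 FPKM in livers 1, 2, and 3. *AFM*, a vitamin E-binding protein related to albumin, was at 315, 82.2, and 280.1 FPKM. *CRP*, C-reactive protein of the acute phase response, was at 114, 228, and 260.0 FPKM. Liver 2 was thus lowest for *G6PC1* and *AFM*, and liver 1 was lowest for *CRP*. Of 26 acute phase and plasma carrier genes in the table, 16 were among the 200 highest in liver and only 6 met the liver conditions, and of 16 lipid genes 5 were among the 200 highest. Tested genes with MHPC reads were called lower in 10 of 10 carbohydrate, 15 of 15 lipid, and 21 of 21 plasma carrier genes.

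Transcription factors gave 4 members of 8 that met the liver conditions. *FOXA2*, a pioneer factor of endoderm and liver, was at 21.6, 21.2, and 22.4 FPKM in livers 1, 2, and 3, the smallest spread of all members (1.05-fold), and it rested on 1259 liver reads. *NR0B2* (SHP), a corepressor induced by bile acids, was at 88.1, 39.9, and 116 FPKM. *CREB3L3*, a factor of the fasting and acute phase responses, was at 42.0, 96.3, and 67.3 FPKM, and *NR1I2* (PXR), the receptor of foreign compounds, was at 41.9, 20.1, and 40.1 FPKM. Liver levels thus differed little for *FOXA2* and by 2.09-fold to 2.90-fold for the other 3 factors. *HNF4A* was not a member because of 1 read in MHPC 2 (0, 0.0731, and 0 FPKM), against 74.0, 45.5, and 139.9 FPKM in liver. *NR1H4* (FXR), the bile acid receptor, also had 1 MHPC read, while *PROX1* had 47. *NR5A2* had no MHPC read and lay under 10 FPKM in adult liver 2. All 6 factors tested with MHPC reads were called lower in MHPCs.

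Markers of cells other than hepatocytes were also among the members, 8 in all when *FCN2*, which stands in both kinds of list, is counted. The sinusoidal endothelial list held *LYVE1*, a hyaluronan receptor, at 25.2, 31.7, and 22.5 FPKM, *MRC1*, the mannose receptor, at 20.6, 12.1, and 21.9 FPKM, and *TEK*, the angiopoietin receptor, at 17.6, 14.8, and 15.5 FPKM. The Kupffer and myeloid list held *CD163*, the hemoglobin scavenger receptor of macrophages, at 41.0, 38.5, and 24.2 FPKM and *MS4A4A*, a macrophage membrane protein, at 30.7, 29.3, and 12.7 FPKM, beside *S100A8*. The stellate list held *COLEC11*, a collectin, at 64.5, 22.1, and 49.6 FPKM. *TEK* had the next smallest spread between livers of all members, 1.19-fold. *PTPRC*, the pan-leukocyte antigen, and *TIMD4*, a Kupffer cell receptor, had no MHPC read either but were under 10 FPKM in a liver.

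Levels of the whole marker lists were read beside these members. The 18 sinusoidal genes in the table summed to 8.3 to 9.1 FPKM in MHPCs and 634 to 719 FPKM in liver, and the 12 Kupffer and myeloid genes to 2.88 to 3.55 FPKM in MHPCs and 215 to 1322 FPKM in liver. The 9 stellate and fibroblast genes summed to 2285 to 3003 FPKM in MHPCs against 117 to 317 FPKM in liver. Without *COL1A1*, *COL3A1*, and *ACTA2*, genes of collagen and smooth muscle actin, the other 6 summed to 132 to 248 FPKM in MHPCs and 85.8 to 239.8 FPKM in liver, and the ranges overlapped. In that list 5 of all 9 genes were called higher in MHPCs and 3 lower on deposited values, beside 65.2% and 15.4% of all tested genes, and 4 were called higher and 4 lower with size factors. Of the T and NK cell list (11 genes in the table), the B and plasma cell list (6), the erythroid list (5), and the cholangiocyte list (6), none was a member, mainly because the genes were under 10 FPKM in a liver. The cholangiocyte genes summed to 33.7 to 46.9 FPKM in MHPCs and 31.9 to 54.2 FPKM in liver, and the erythroid genes to at most 0.0663 FPKM in MHPCs and 103 to 1102 FPKM in liver. The T and NK cell genes summed to 4.87 to 17.2 FPKM in MHPCs, and to 31.5, 25.8, and 13.004 FPKM in livers 1, 2, and 3. *KLRD1*, a receptor of NK cells, alone made up 3.98, 16.4, and 3.95 FPKM of the MHPC sums. *HBD*, a globin of red blood cells, was at 0 in MHPCs but among the 200 highest in liver, at 1075, 833, and 99.9 FPKM. The part of each cell type in the liver level of a member was not tested.

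**Figure D2:**
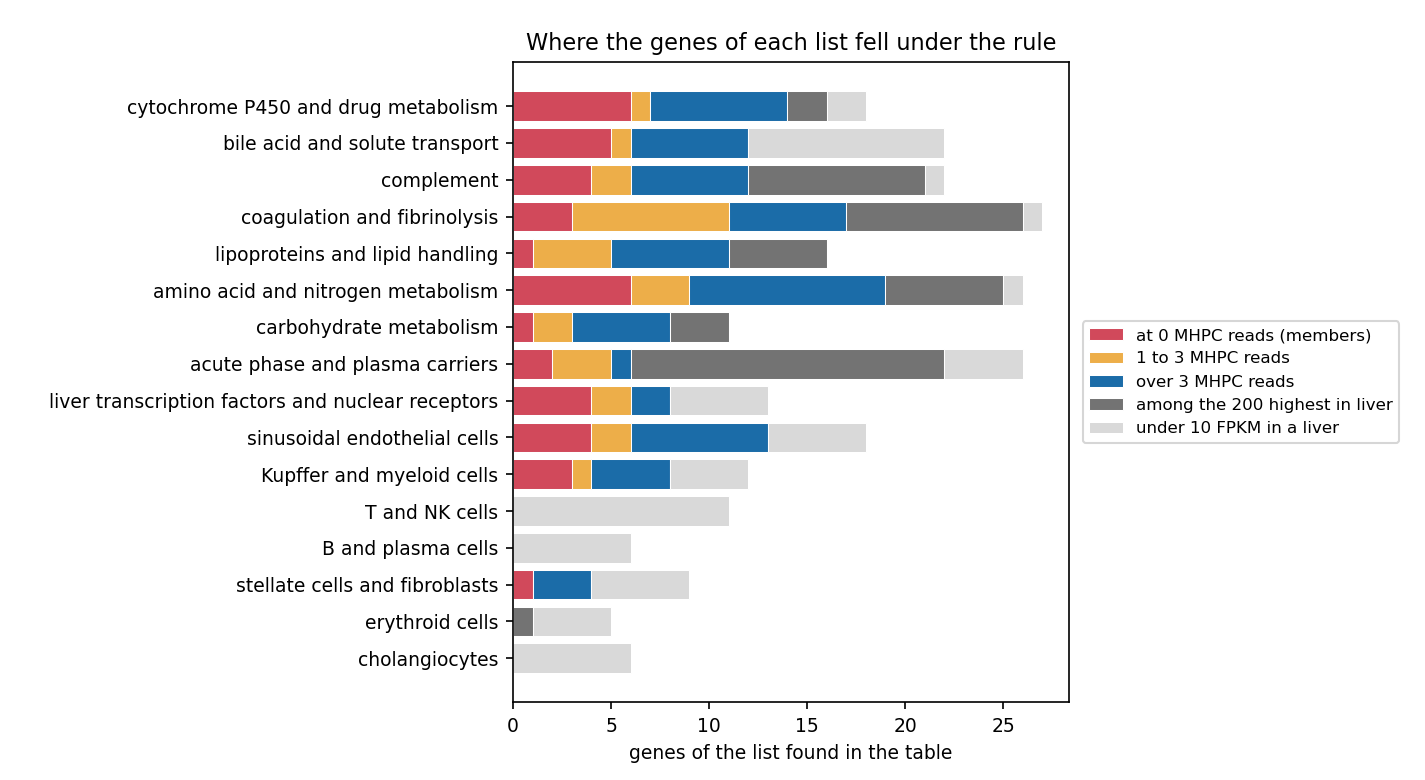
Bars count the genes of each of the 16 lists that were found in the table, split by where they fell under the rule: members at 0 MHPC reads, genes that met the liver conditions with 1 to 3 or with more MHPC reads, genes among the 200 highest in liver, and genes under 10 FPKM in a liver. Drug metabolism and amino acid metabolism hold the most members, 6 each, and the coagulation list holds 8 genes with 1 to 3 MHPC reads.

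A further 33 members had a name but stood in no list, and those given here were named after their values were seen. *THRSP*, a regulator of fatty acid synthesis in liver, was at 381, 30.1, and 234 FPKM in livers 1, 2, and 3. *MLXIPL* (ChREBP), the glucose-responsive factor of lipid and sugar genes, was at 35.3, 20.6, and 55.9 FPKM, and *PPARGC1A*, a coactivator of gluconeogenesis, was at 40.4, 22.3, and 15.3 FPKM. *IGF2*, the growth factor known for its fetal expression, was at 316, 145, and 191 FPKM in the adult livers and had no read in this fetal liver-derived line. *AKR1D1*, a reductase of bile acid and steroid synthesis, was at 85.9, 13.2, and 75.9 FPKM, and *HSD17B2*, which inactivates estradiol and testosterone, at 67.1, 12.4, and 69.5 FPKM. *CYP11B1*, known for cortisol synthesis in the adrenal gland, was at 42.0, 16.5, and 95.4 FPKM in liver. Reads that also match a near copy could be lost or miscounted. Liver 2 was lowest for all of these but *PPARGC1A*. Immune and vascular genes were again present in this group. *CYBB*, the NADPH oxidase of phagocytes, was at 39.7, 65.1, and 28.3 FPKM, and *SIGLEC1*, a macrophage lectin, at 20.2, 10.5, and 15.0 FPKM. *GJA4*, a connexin of arterial endothelium, was at 39.3, 103, and 25.4 FPKM.

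**Figure D3:**
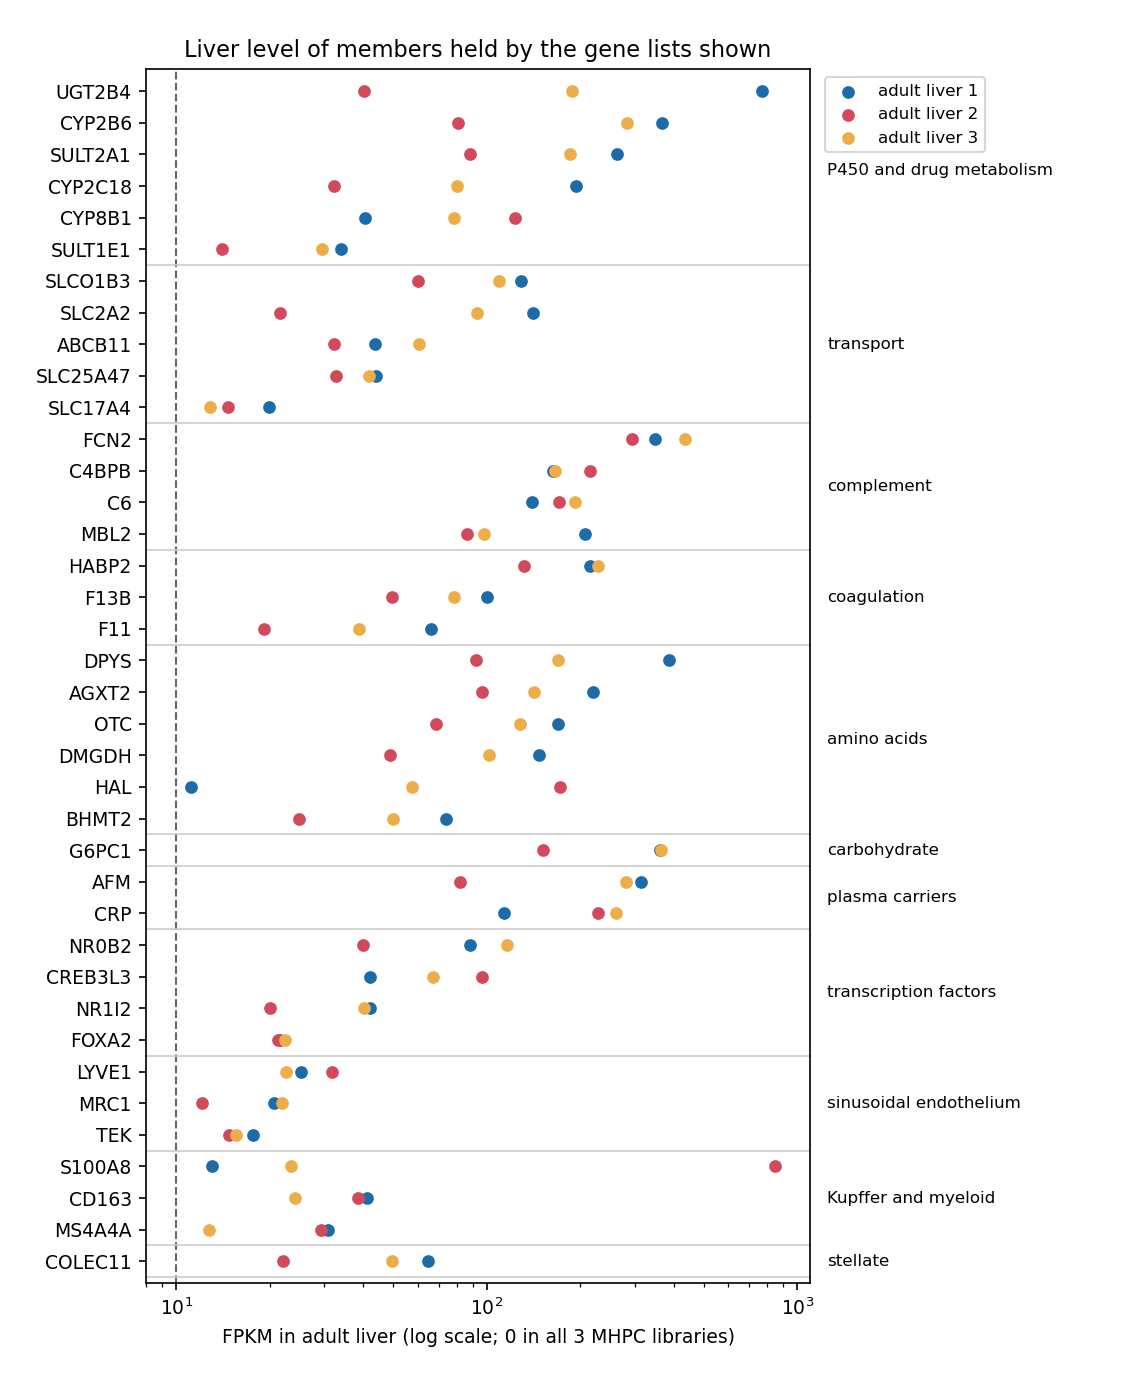
FPKM in adult livers 1, 2, and 3 (1 point each, log scale) is shown for the members held by a gene list other than the lipid list, ordered by list and by mean liver level, with a dashed line at the minimum of 10 FPKM. All of them were at 0 in the 3 MHPC libraries. On these deposited values liver 2 is the lowest liver in 62.4% of all members, beside 52.7% of all genes that met the liver conditions (50.4% and 27.9% with size factors), and *S100A8*, *HAL*, *CYP8B1*, and *CREB3L3* are among those where it lies to the right.

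The 45 members without a name were the shortest group of members. Their median recovered length was 771 bases and their median liver level 66.6 FPKM, beside 1602 bases and 99.4 FPKM for the 32 members in a hepatocyte list and 1447 bases and 36.9 FPKM for the 33 named members in no list. Across all 117 the median length was 1228 bases, beside 1560 bases for the 4062 genes with MHPC reads. A shorter gene collects fewer reads at the same FPKM, and some of the shortest members had weak bounds. ENSCJAG00000024611, with a recovered length of 85 bases and 78 liver reads, had a bound of 21.2-fold. Length alone did not set the bound, as ENSCJAG00000026519, with 164 bases, reached 151-fold. The members' median of liver reads was higher than that of the genes with MHPC reads, 2077 against 1389.5. Their median liver level was also higher, 53.0 against 31.2 FPKM, and the part of length in the counts of 0 was not tested. A name was found for 61.5% of members and 71.3% of the genes with MHPC reads.

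The edges of the set were as follows. *CYP2C76*, a marmoset P450, entered with 10.3 FPKM in its lowest liver and *SIGLEC1* with 10.5 FPKM, whereas *PIK3AP1*, an adaptor of immune signalling, was at 0 in MHPCs and missed the minimum with 9.93 FPKM in liver 3. *HSD11B1*, which regenerates cortisol, and *C4BPA*, the alpha chain partner of *C4BPB*, were left out by 1 MHPC read each, at mean liver levels of 364 ± 51.3 and 321 ± 37.6 FPKM (SD, n = 3). *HSD11B1* thus lay above the highest member in liver (359 FPKM), and 1 read kept it out. Allowing at most 1 MHPC read gave 164 genes and allowing at most 3 gave 204. Among the 12 genes left out for being among the 200 highest were *CCL16*, a chemokine of hepatocytes, at 1200, 551, and 853 FPKM, and *C9*, the last complement component, at 283, 495, and 548 FPKM. The 9 others without a name ranged from 415 to 751 FPKM in mean liver level. They were ENSCJAG00000019098, ENSCJAG00000012625, ENSCJAG00000013050, ENSCJAG00000005847, ENSCJAG00000009851, ENSCJAG00000018780, ENSCJAG00000005864, ENSCJAG00000023135, and ENSCJAG00000019752.

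Differences between the 3 livers were not used by the rule beyond the minimum, and were described without a test, since each liver is a single sample. The highest liver was at least 2-fold above the lowest in 74 of the 117 members (63.2%), beside 20.3% of all 4179 genes that met the liver conditions. The share was 56.3% in the 87 genes with 1 to 3 MHPC reads and 35.8% in the 829 genes with more than 3 MHPC reads that were called lower in MHPCs. The median ratio of the highest to the lowest liver was 2.39 in members, 2.29 in the genes with 1 to 3 reads, and 1.46 in all genes with MHPC reads. The share was thus higher in the members than in the whole background, with the genes just outside the set between them, and this difference was not tested. Mean liver level was not the same in these sets, with medians of 53.0 FPKM in members, 68.4 FPKM in the genes with 1 to 3 reads, and 31.2 FPKM in all genes with MHPC reads. The count depended on single livers, as it was 24 without adult liver 2, 47 without adult liver 1, and 61 without adult liver 3. With 2 livers left it can only be lower or equal. The share of all genes with the same liver left out is not given here. These 3 counts can therefore not be set against the 20.3%, which is for all 3 livers.

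Adult liver 2 was the one that stood apart most often. In 33 members (28.2%) it was at least 2-fold below both other livers, beside 4.38% of all genes that met the liver conditions. The share was 18.4% (16 of 87) in the genes with 1 to 3 MHPC reads and 8.69% (72 of 829) in the genes with more than 3 that were called lower. In 3 members (2.56%) it was at least 2-fold above both, beside 2.35%. These 3 were *S100A8*, *HAL*, and *GJA4*. With size factors of the 3 livers, which divide liver 2 by 0.871, the counts became 21 (17.9%) below and 12 (10.3%) above both, beside 2.23% and 4.26% of all genes that met the liver conditions. The median log2 ratio of liver 2 to liver 1 was -0.71 in members and -0.20 in genes with MHPC reads, or -0.40 and 0.12 with size factors, so that the sign turned in the latter. In the genes with 1 to 3 MHPC reads it was -0.62, or -0.31 with size factors, close to the members on both scales.

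Liver 2 was at least 2-fold below both other livers in 13 of the 32 members of hepatocyte lists, in 8 of the 33 named members in no list, in 11 of the 45 without a name, and in 1 of the 7 held only by lists of other cell types. The widest ranges with liver 2 lowest were those of *UGT2B4* (19.2-fold from the highest to the lowest liver), ENSCJAG00000035400 (17.8-fold), ENSCJAG00000008395 (15.6-fold), and *THRSP* (12.7-fold). *S100A8* had the widest range of all, 65.0-fold. Across the members, the order of levels was more alike in livers 1 and 3 (Spearman rho 0.86 over 117 genes) than in livers 1 and 2 (0.49) or 2 and 3 (0.62), and in the 4062 genes with MHPC reads these values were 0.90, 0.82, and 0.84. All values within a liver share 1 library and its depth, and genes are not independent replicates.

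**Figure D4:**
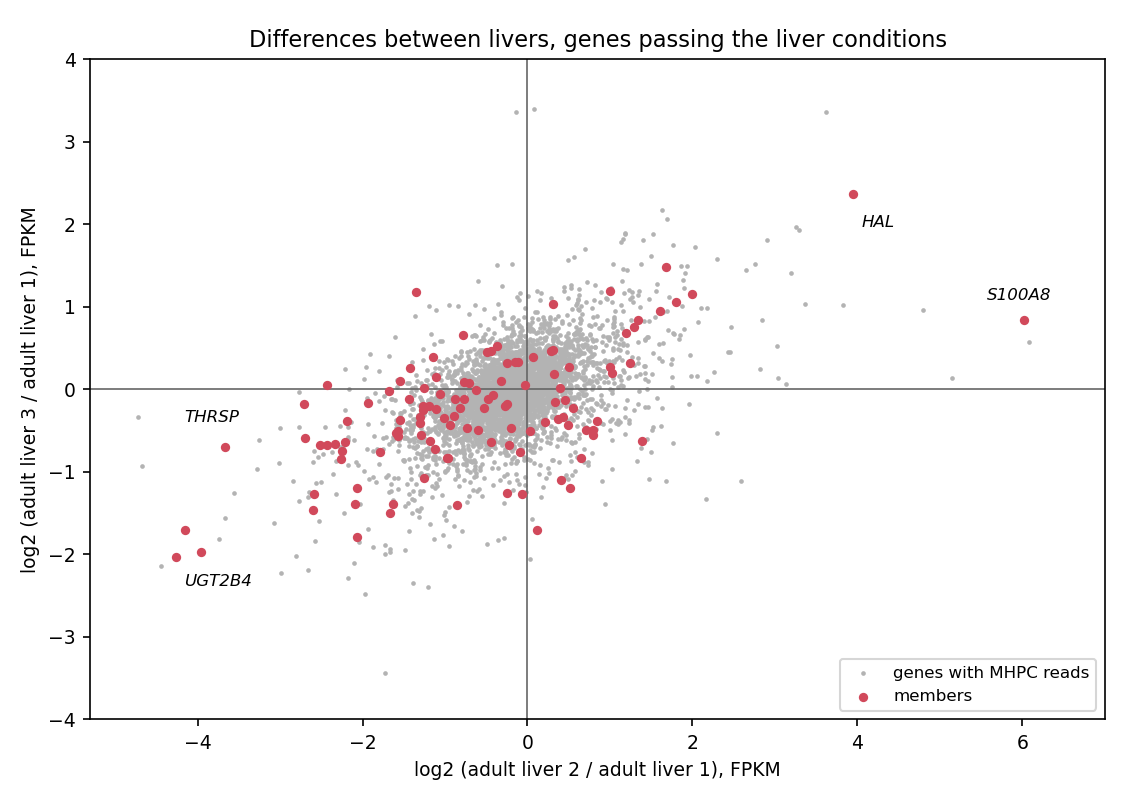
The log2 ratio of FPKM in adult liver 2 to adult liver 1 (horizontal) is plotted against that of adult liver 3 to adult liver 1 (vertical) for the 117 members and the 4062 other genes that met the liver conditions. The median of the members lies further to the left than that of the other genes, at -0.71 and -0.20 on the horizontal axis. *S100A8* and *HAL* lie far to the right.

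Levels of the gene lists in the livers were read beside these values. The acute phase and plasma carrier list summed to 127557, 205802, and 140284 FPKM in livers 1, 2, and 3, of which *SAA1*, an acute phase apolipoprotein, made up 637, 78809, and 22531 FPKM. Without *SAA1* the list summed to 126920, 126993, and 117753 FPKM. That sum joined genes of opposite direction. *ALB* was lowest in liver 2 (52746, 13225, and 32492 FPKM) and *HP*, haptoglobin, was highest there (20113, 52553, and 35373 FPKM). Of the others, *SAA4*, *HPX*, *LRG1*, and *CP* were also highest in liver 2, whereas *RBP4*, *TF*, and *AFM* were lowest there. The Kupffer and myeloid list summed to 311, 1322, and 215 FPKM, or to 298, 473, and 191 FPKM without *S100A8*, and the B and plasma cell list was also highest in liver 2 (109.7 FPKM, against 32.9 FPKM in liver 1 and 13.02 FPKM in liver 3). The sinusoidal list was at a like level in the 3 livers, at 686, 634, and 719 FPKM, whereas the drug metabolism list was lowest in liver 2, at 6271, 4746, and 6068 FPKM. Liver 2 was also lowest in the carbohydrate list (14093, 2018, and 7449 FPKM) and the lipid list (22074, 8577, and 12386 FPKM). It was lowest in the transport list (1615, 849, and 1469 FPKM) and in the amino acid and transcription factor lists as well. The complement list (10524, 13407, and 14048 FPKM) and the coagulation list (29020, 33430, and 41283 FPKM) were lowest in liver 1. Such sums lean on the most abundant genes of a list, so these orders are those of the sums and need not hold for its other genes. The part of these levels in the low values of the members in liver 2 was not tested.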

How the data were processed

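The authors sequenced RNA of 3 MHPC samples and 3 adult livers and deposited 1 table of FPKM values. The submitters' processing notes name TopHat2 2.0.9, Bowtie2 2.0.6, and HTSeq 0.6.1, and the genome build, annotation release, and strand setting are not given in the sources used here. All 6 columns were used.

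Library totals, gene lengths, and reads were recovered as the whole numbers that give back the deposited values, with 99.6% to 99.7% of reads on listed genes. Recovered lengths are lower bounds, since a common divisor of a gene's length and its reads cannot be seen. No libraries were copies, with a chi-square per gene of 5.21 to 6.14 between MHPC libraries and 107 to 280 between livers, where sampling gives about 1. FPKM values are not counts, so log2(FPKM + 1) was compared with limma 3.58.1 (trend, Benjamini-Hochberg adjustment, threshold 0.05) in R 4.3.3 over the 13620 genes at 1 FPKM or more in at least 3 libraries. The pseudocount makes fold changes of low genes too small. Nothing says how far the MHPC cultures were separate, so *P*-values measure the spread between these samples. Python 3.11.15 with numpy 2.4.6, pandas 2.3.3, and matplotlib 3.10.9 was used otherwise. Both steps were tested on simulated data.

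Some results are not reported here. Names were found for 12816 of 32323 identifiers. RefSeq assembly calJac240_pri was used for gene order only. The members, the 16 gene lists (374 entries), and the tests were chosen with earlier results of these data known. Named were the members with the highest level, bound, and highest and lowest spread between livers, those at the edges of the rule, the genes at 0 among the 200 highest in liver, and up to 30 members of the lists in list order. *NR1I2*, *LYVE1*, *MRC1*, *CD163*, *MS4A4A*, *COLEC11*, members in no list, and list genes that are no members were named after their values were seen. Alternatives were other minima, exclusions, scalings, pseudocounts, filters, read limits, the replicate number as a block, and each library left out.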

Additional observations from a re-analysis of the deposited data

How the results depend on the processing

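The number of members was 117 and lay between 82 and 164 under other liver minima, exclusions, scalings, and a limit of 1 MHPC read, and moved to 204 with at most 3 MHPC reads. With 1 library left out it was 131 to 144, with 115 to 117 of the 117 kept. The count at least 2-fold different between livers (74) was 24 to 61 with 1 liver left out, and 52 to 81 otherwise. With 1 liver left out no share of all genes is given beside it. The median ratio of the highest to the lowest liver (2.39) was 1.40 to 2.01 with 1 liver left out, and with 2 livers both measures can only fall. The median fold bound (555) was 183 with 3 reads allowed in each MHPC library, 1318 with size factors, and 345 to 555 with 1 library left out. The median liver level (53.0 FPKM) was 74.0 when rescaled to 1000000, 83.4 with size factors, and 47.0 to 58.8 with 1 liver left out. The median length (1228 bases) was 1382 over members with at least 1000 liver reads.

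All 117 members were called lower by limma in each alternative run, also with the replicate number as a block (117). With 1 liver left out no member could pass the filter of 3 libraries, so a filter of 2 libraries was added after the data were seen, and it gave 117 each time. The numbers do not pair the samples, since deviations of same-numbered libraries correlated at -0.0127, -0.00189, and -0.0746. The rule fixes these calls, so they say nothing on stability. At the edge of the set, 87 genes that met the liver conditions had 1 to 3 MHPC reads. Membership there could depend on depth, which was not tested.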

Other observations

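Members lay next to each other in the genome in a few cases. Of the 72 named members, 68 were found in the RefSeq gene list of assembly calJac240_pri, used for gene order only. With at most 2 protein-coding genes allowed between them, 4 pairs of neighbouring members were found. *BHMT2* and *DMGDH* had no gene between them and were both highest in liver 1 and lowest in liver 2. *ZBTB16*, a zinc finger transcription factor, and *NNMT*, which methylates nicotinamide, also had none between them, at mean liver levels of 15.0 ± 2.57 and 99.8 ± 17.9 FPKM (SD, n = 3). *PPARGC1A* and *GBA3*, a cytosolic beta-glucosidase, were the other pair without a gene between, and *GBA3* was at 44.3 ± 4.38 FPKM (SD, n = 3). *MS4A6A* and *MS4A4A* of the macrophage *MS4A* cluster had 1 gene between, and *MS4A6A* was at 30.1, 26.2, and 21.7 FPKM in livers 1, 2, and 3. How many neighbours genes of like liver level have was not tested.

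*CYP7A1*, the rate-limiting enzyme of bile acid synthesis, met neither side of the rule. It had 1 MHPC read and was at 10.1 FPKM in adult liver 1, and it was listed at 0 in adult livers 2 and 3. *ALPL*, alkaline phosphatase, and *DIO1*, which activates thyroid hormone, each missed the set by 1 MHPC read and differed widely between livers, at 24.4, 301, and 252 FPKM and at 345, 50.5, and 135 FPKM in livers 1, 2, and 3.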
